A study of Rattus norvegicus with 18 samples.

Results

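Laminins are the main cell-binding glycoproteins of basement membranes, and the 8 genes described here code for chains of these proteins. They are 5 alpha chains (Lama1, Lama2, Lama3, Lama4 and Lama5), 2 beta chains (Lamb1 and Lamb2) and 1 gamma chain (Lamc1). They were taken by symbol from the deposited peak list, as 8 of the 17003 genes named there, with every peak of these genes, 299 of 215951. The RNA table held 32883 identifiers and was joined by gene identifier. Primary rat Schwann cells at passage 3 were grown with vitamin C or, as controls, without it, and the labels give no strain, dose or duration. RNA depleted of ribosomal RNA, DNA precipitated with an antibody kit against 5-hydroxymethylcytosine (hMeDIP) and unprecipitated input DNA were each sequenced in 3 vitamin C and 3 control samples. Whether the 3 samples of a group are separate animals or cultures is not stated. The p-values therefore rest on a spread between samples that may be technical only.

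Each laminin is a trimer of 1 alpha, 1 beta and 1 gamma chain that is put together inside the cell and secreted. Once outside, trimers polymerise on the cell surface through the short arms of their chains, while the end of the alpha chain binds integrins and dystroglycan. Schwann cells, the glia that ensheathe peripheral axons, lay down a basal lamina rich in the alpha 2, beta 1, gamma 1 trimer and also make alpha 4. Loss of alpha 2 causes a congenital muscular dystrophy with impaired peripheral myelination in humans and mice. Vitamin C (ascorbate) is a cofactor of the prolyl hydroxylases that stabilise collagen and of the TET enzymes that oxidise 5-methylcytosine to 5-hydroxymethylcytosine, and cultured Schwann cells need it to assemble a basal lamina.

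The starts of Lama2, Lamb1 and Lamc1 are shown because the RNA of these 3 chains rose by the most among the members, as described next. Each sequence runs from 250 bases before the RefSeq start of the gene to 50 bases into it, 5′ to 3′ on the coding strand, in the rat assembly GRCr8, with every CG dinucleotide, the usual site of cytosine methylation and hydroxymethylation, in capitals. The intervals are chr1:19491896-19492195 on the plus strand for Lama2, chr6:53562846-53563145 on the plus strand for Lamb1 and chr13:68051937-68052236 on the minus strand for Lamc1.
Lama2: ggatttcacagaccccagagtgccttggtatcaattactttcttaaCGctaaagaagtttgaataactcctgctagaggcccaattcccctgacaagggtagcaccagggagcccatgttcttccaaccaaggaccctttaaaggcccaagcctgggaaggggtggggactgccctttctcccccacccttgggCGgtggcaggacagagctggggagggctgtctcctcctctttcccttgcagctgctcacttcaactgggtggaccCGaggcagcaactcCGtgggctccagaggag
Lamb1: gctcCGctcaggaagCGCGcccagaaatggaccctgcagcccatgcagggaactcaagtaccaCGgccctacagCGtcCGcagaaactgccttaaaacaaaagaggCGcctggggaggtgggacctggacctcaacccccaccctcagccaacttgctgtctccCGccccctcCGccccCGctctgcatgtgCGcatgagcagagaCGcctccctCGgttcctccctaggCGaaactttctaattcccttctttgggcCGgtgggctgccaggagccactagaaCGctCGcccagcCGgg
Lamc1: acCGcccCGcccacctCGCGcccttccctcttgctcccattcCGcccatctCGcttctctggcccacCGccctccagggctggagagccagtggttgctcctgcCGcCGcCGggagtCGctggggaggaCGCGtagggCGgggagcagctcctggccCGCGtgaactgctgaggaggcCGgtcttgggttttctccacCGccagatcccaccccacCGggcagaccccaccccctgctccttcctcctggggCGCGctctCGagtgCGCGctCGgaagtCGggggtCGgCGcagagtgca
Lama2 had 4 CG dinucleotides in these 300 bases, Lamb1 had 18 and Lamc1 had 28. The median over 33469 RefSeq rat promoters of this length was 7, with quartiles of 3 and 19. The other members in the table had 8 (Lama1), 7 (Lama3), 12 (Lama4) and 27 (Lama5), and Lamb2 was not matched. The letters GGGCGG, read on both strands and overlapping the CG dinucleotides, occurred 1 time in Lama2, 2 times in Lamb1, 5 times in Lamc1 and 4 times in Lama5, and at least once in 33.1% of all promoters. The letters TATAAA occurred 1 time in Lama4 and in no other member in the table, and in 14.2% of all promoters. No source used here names the genome build of the deposited peaks, so peak positions below are those of the peak list and are not placed on these sequences.

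RNA libraries had 23381814 to 33173282 reads in genes, hMeDIP libraries 24020306 to 39899445 reads in peaks and input libraries 7201638 to 9521037. In RNA, vitamin C replicate 1 stood apart from the other libraries of its group, with a chi-square per degree of freedom of 27.4 and 38.3 against them, where theirs was 5.26. In hMeDIP, replicates 1 and 3 differed by less than sampling noise in both groups and were summed and counted as 1 sample, so hMeDIP values are given for 2 libraries per group. All 9 Schwann cell markers were well above the detection limit in RNA, with summed levels of 9896 to 11130 CPM (counts per 1000000 reads in genes) with vitamin C and 11326 to 11566 CPM in controls.

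The RNA of the alpha 2, beta 1 and gamma 1 chains rose together with vitamin C, alpha 4 rose slightly, and alpha 5 and beta 2 did not pass the test. Of the 8 members, 6 had enough reads to be tested, and 4 of them were higher and 0 lower at an adjusted p under 0.05 in edgeR's quasi-likelihood test. Over all 12925 genes tested, 19.1% were higher and 21.0% lower. The median log2 change of the 6 tested members was 0.31, against -0.01 over all tested genes. In bulk RNA, a change in the number of cells of a type and a change of RNA per cell cannot be told apart. In all 4 genes called higher every vitamin C library was above every control, as in 25.8% of all tested genes. Levels are not compared between genes, because no transcript lengths were used.

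Lama2, which codes for the alpha chain of the main Schwann cell laminin, had 1379, 1072 and 991 CPM in vitamin C replicates 1, 2 and 3, against 479, 443 and 438 CPM in the control replicates. Every vitamin C library was above every control, and the highest was replicate 1, the library that stood apart. The mean was 1148 ± 204 CPM with vitamin C and 453 ± 22.5 CPM in controls (SD, n = 3 each), a log2 change of 1.34 ± 0.12 (SE; edgeR, adjusted p = 4.77e-05). Without vitamin C replicate 1 the log2 change was 1.19 (edgeR, adjusted p = 6.56e-09).

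Lama4, the other alpha chain of the Schwann cell basal lamina, had 732, 694 and 673 CPM with vitamin C, against 599.8, 600.5 and 631 CPM in controls. The groups did not overlap, but the lowest vitamin C library lay close to the highest control. The log2 change was 0.20 ± 0.06 (SE; edgeR, adjusted p = 0.0222). This call was lost without vitamin C replicate 2 (adjusted p = 0.0639), without control replicate 1 (0.0899) or 2 (0.121), and with scaling by library size alone (0.0838).

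Lama5, the alpha chain of laminins found in most adult basement membranes, had 326, 335 and 303 CPM with vitamin C, against 299, 303 and 331 CPM in controls. These ranges overlapped almost completely, and the log2 change was 0.05 ± 0.06 (SE; edgeR, adjusted p = 0.576). Its 2 relatives Lama1 and Lama3, alpha chains of embryonic and epithelial basement membranes, were near the limit of detection. Lama1 had 1 read in each vitamin C library, against 0, 1 and 1 in controls. Lama3 had 8, 7 and 8 reads with vitamin C, against 3, 1 and 2 in controls, and neither gene passed the expression filter. With no filter Lama3 was called higher (edgeR, adjusted p = 0.0333), on these few reads.

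Among the beta chains, Lamb1 rose and Lamb2 did not pass. Lamb1, the partner of alpha 2 in the Schwann cell trimer, had 441, 502 and 468 CPM with vitamin C, against 248, 249.6 and 243 CPM in controls. The control libraries were within 3.16 CPM (SD) of their mean, and the lowest vitamin C library was well above all of them. The log2 change was 0.93 ± 0.06 (SE; edgeR, adjusted p = 1.06e-05). Lamb2, a beta chain enriched at synapses, had 549, 541 and 531 CPM with vitamin C, against 472, 486 and 538 CPM in controls. Control replicate 3 lay inside the vitamin C range, and the log2 change was 0.12 ± 0.06 (SE; edgeR, adjusted p = 0.166). Without that library it was 0.18 (edgeR, adjusted p = 0.0499).

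Lamc1, the gamma chain of most laminins, had 651, 627 and 607 CPM with vitamin C, against 448, 456 and 498 CPM in controls. The groups did not overlap, and the log2 change was 0.43 ± 0.06 (SE; edgeR, adjusted p = 7.54e-04).

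**Figure D1:**
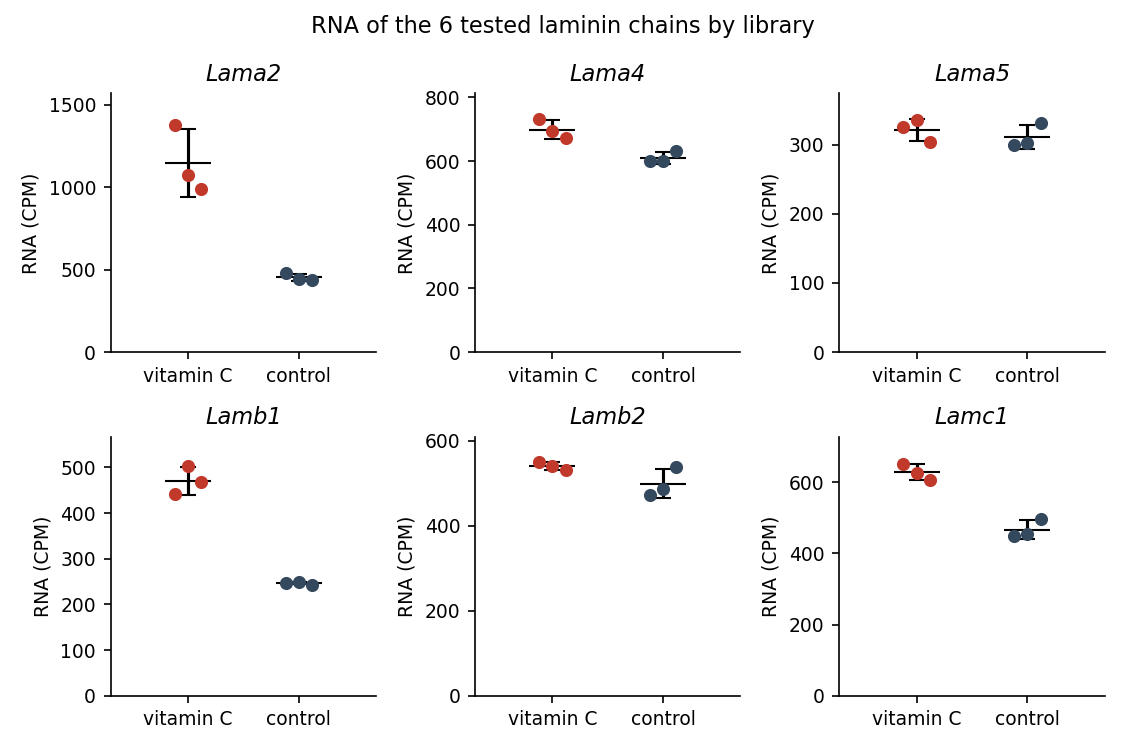
RNA level (CPM, linear axes from 0) of the 6 tested laminin chains in each vitamin C and control library, with the mean and SD of 3 libraries as bars. Lama2, Lama4, Lamb1 and Lamc1 have no overlap between the groups, and the libraries of Lama5 and Lamb2 overlap.

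Ratios of reads within a library do not depend on how libraries are scaled, and they moved the same way. They reuse the counts given above and so are not a separate test. There were 1.88, 1.55 and 1.47 Lama2 reads for each Lama4 read in vitamin C libraries, against 0.799, 0.737 and 0.693 in controls. For each Lamb2 read there were 0.804, 0.929 and 0.880 Lamb1 reads with vitamin C, against 0.525, 0.513 and 0.453 in controls. In both ratios every vitamin C library was above every control. They compare reads, which depend on transcript length, and so show unequal change and not the proportions of the chains. Relative to Lamc1, Lama2 had 1.82 ± 0.261 reads with vitamin C and 0.973 ± 0.0941 reads in controls, and Lamb1 had 0.750 ± 0.0639 and 0.530 ± 0.0353 (SD, n = 3 each). The rises of the 3 chains were thus of different size, with alpha 2 the highest and gamma 1 the lowest.

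Lamb3, a beta chain of epithelial laminins, and Lamc3, a gamma chain of a few tissues, were not detected at a testable level, with at most 11 reads in any library. Lamb4 had no symbol in the files.

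The RNA of proteins that share the basement membrane with laminin mostly rose with that of the 3 chains. Of 11 tested partners, 9 were higher, 0 lower and 2 not called, with a median log2 change of 1.05. Over all tested genes, 19.1% were higher and 21.0% lower. Col15a1, a collagen at the outer face of basement membranes, rose by 2.68 ± 0.28, from few reads (2.86 ± 0.635 CPM with vitamin C and 0.438 ± 0.136 CPM in controls). Fbln2, a fibulin that binds laminin, rose by 1.50 ± 0.11, Nid2, a nidogen that links laminin to type IV collagen, by 1.32 ± 0.06, Ntn4, a laminin-related netrin, by 1.17 ± 0.13, and Col18a1 by 1.07 ± 0.06 (SE; edgeR, adjusted p from 1.81e-06 to 2.09e-04 over these genes). Nid1, the other nidogen, was at 793 ± 33.5 CPM with vitamin C and 797 ± 8.02 CPM in controls (SD, n = 3 each; edgeR, adjusted p = 0.911).

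Of 13 tested laminin receptors, 6 were higher, 3 lower and 4 not called, where 19.1% of all genes were higher and 21.0% lower. Their median log2 change was 0.23. Itgb4, the integrin beta chain that pairs with alpha 6, rose by 1.98 ± 0.05, and Itga1, a collagen and laminin receptor, by 1.66 ± 0.11. Bcam, a receptor of alpha 5, rose by 1.05 ± 0.10. The integrin alpha chain Itga3 fell by 0.66 and the syndecan Sdc1 by 0.60 (edgeR, adjusted p from 3.04e-07 to 2.89e-04 over these 5 genes). Itga7, a further laminin-binding integrin chain, was the third that fell, to 777 ± 48.0 CPM with vitamin C, against 975 ± 55.9 CPM in controls. Dag1, which codes for dystroglycan, the receptor of alpha 2 on Schwann cells, had 1963 ± 2.35 CPM with vitamin C and 2093 ± 79.1 CPM in controls (SD, n = 3 each; edgeR, adjusted p = 0.196). Nid1, Itga7 and Dag1 are named for their role, after their values were seen.

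Dystroglycan binds laminin through a sugar chain. Of 8 tested genes that build it, 2 were higher (B3galnt2 and Pomgnt1) and 3 lower (Pomt1, Pomgnt2 and Pomk), with a median log2 change of -0.01. Over all tested genes, 19.1% were higher and 21.0% lower, and whether these 8 differ from that was not tested. B3galnt2, an acetylgalactosamine transferase, rose by 0.57 ± 0.08, and Pomt1, which starts the chain, fell by 0.47. The rise of Pomgnt1 (0.21 ± 0.07; edgeR, adjusted p = 0.0383) was lost in 4 of the 6 fits that left out 1 library and with scaling by library size. Of 12 tested genes of adhesion signalling below the receptors, 4 were higher and 0 lower, beside 19.1% and 21.0% of all tested genes. Their median log2 change was 0.15. The transcriptional co-activators Yap1 and Wwtr1 rose by 0.68 ± 0.08 and 0.48 ± 0.07, the adaptor Lims1 by 0.48 ± 0.08, and vinculin, Vcl, by 0.34 ± 0.05 (SE; edgeR, adjusted p from 2.10e-04 to 0.00157 over these 4 genes).

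Markers of some other cell types moved with these genes. For comparison, 19.1% of all tested genes were higher and 21.0% lower. Of 5 tested skeletal muscle markers, 5 were higher and 0 lower, with summed levels of 491 to 531 CPM with vitamin C and 123 to 177 CPM in controls, and the other 7 listed had no symbol in the files. The sarcomere genes Tnni1, Myh3, Acta1 and Actn2 rose by 2.16 ± 0.13, 1.78 ± 0.14, 1.64 ± 0.11 and 1.60 ± 0.12, and Myod1, a myogenic transcription factor, by 1.06 ± 0.14 (log2 change ± SE; edgeR). Of 4 tested pericyte and smooth muscle markers, 3 were higher and 0 lower, with summed levels over the list of 186 to 220 CPM with vitamin C and 79.8 to 83.1 CPM in controls. These were Tagln, an actin-binding protein of smooth muscle, which rose by 2.27 ± 0.09, the muscle intermediate filament gene Des by 1.54 ± 0.09 and the PDGF receptor Pdgfrb by 1.11 ± 0.06 (SE; edgeR, adjusted p from 1.67e-06 to 6.37e-06). Pdgfrb had 109 ± 6.69 CPM with vitamin C and 50.4 ± 0.200 CPM in controls (SD, n = 3 each). Myh11, smooth muscle myosin, did not pass, with 4.96 ± 0.519 CPM with vitamin C and 4.14 ± 0.193 CPM in controls. The other 5 of that list, Rgs5, Cspg4, Acta2, Cnn1 and Notch3, had at most 10 reads in every library. Of 3 tested fibroblast markers, 0 were higher and 2 lower, with summed levels of 3.45 to 3.92 CPM with vitamin C and 6.19 to 6.89 CPM in controls, with log2 changes of -1.38 for Pdgfra and -0.78 for Pi16, and Dcn, Dpt and Thy1 had at most 1 read in any library.

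Of 4 tested perineurial markers, 2 were higher and 2 lower (432 to 441 CPM with vitamin C and 212 to 240.0 CPM in controls), with Cldn1 and Krt19 at most at 2 reads. These counts were not tested against the 19.1% higher and 21.0% lower over all tested genes. In that list Itgb4 had 401 ± 10.4 CPM with vitamin C and 102 ± 1.32 CPM in controls (SD, n = 3 each). Sfrp4, a secreted protein that binds Wnt ligands, had 8.94 ± 0.983 CPM with vitamin C and 76.7 ± 13.4 CPM in controls, a log2 change of -3.10 ± 0.14 (SE; edgeR, adjusted p = 2.41e-06). Slc2a1, a glucose transporter, had 28.6 ± 2.56 CPM with vitamin C and 41.6 ± 2.17 CPM in controls and was called lower, and Ntn4, given above, was called higher. The 1 tested endothelial marker, Tek, was higher (3.15 to 4.10 CPM with vitamin C and 1.41 to 1.90 CPM in controls over the list), while Cdh5, Kdr, Vwf and Tie1 had at most 3 reads. Of macrophage markers 1 was tested and did not pass (1.36 to 1.79 CPM with vitamin C and 1.24 to 1.60 CPM in controls), and Ptprc, Csf1r and Adgre1 had at most 10 reads. Of the 9 Schwann cell markers, 2 were higher (Cdh19 and Gfap) and 2 lower (S100b and Erbb3), and the call of Erbb3 was lost in 5 of the 6 fits without 1 library. Without vitamin C replicate 1, 4 of the 9 were higher. The part of these cell types in the laminin changes was not tested.

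Over all 6 RNA libraries, the genes whose log2 levels were most like a member's are given as a description. For Lama2 they were Arntl, a transcription factor of the circadian clock, Slfn13 and Slc35f1 (Pearson's r = 0.999 each). For Lamb1 they were Numbl, Hr and Necab2 (r from 0.998 to 0.999), and for Lamc1 Hepacam, Arhgap23 and Hm13 (r = 0.998 each). For Lama4 they were Poc1b, Prag1 and Ap4s1 (r from 0.996 to 0.997), for Lama5 Tns1, Stambp and Letm1 (r from 0.945 to 0.959), and for Lamb2 Zfp496, Mtmr14 and Itgb3 (r from 0.974 to 0.987). Among the members, Lama4 and Lamc1 were the most alike (r = 0.978) and Lama5 and Lamb1 the least (r = 0.366). All 6 points share the libraries and fall into 2 groups, so these values mostly follow the difference between the groups.

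In hMeDIP, 6 laminin genes gained reads with vitamin C and 2 lost them, and the 2 were Lama1 and Lama3, the chains with almost no RNA. The reads of all peaks of a gene were summed for this, and all 8 genes could be tested. At an adjusted p under 0.05, 37.3% of all 17003 genes were higher and 37.3% lower, so a call by itself sets no gene apart. The median over the members was 0.24 on the log2 scale, against 0.01 over all genes. Relative to input, tested in a fit over hMeDIP and input libraries, the same 6 were higher and the same 2 lower, where 27.2% of all genes were higher and 29.0% lower. In input alone, edgeR called 0 of the 8 genes and 0 of all 16998 tested, and 1 of the 8 had an unadjusted p under 0.05.

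Lama1 lost the most. Its peaks had 49.1 and 42.1 CPM (here counts per 1000000 reads in peaks given to genes) in the vitamin C libraries, replicates 1 and 3 summed and replicate 2, against 83.8 and 97.1 CPM in the controls in the same order. The groups were far apart, and the log2 change was -0.94 ± 0.06 (SE; edgeR, adjusted p = 2.73e-17). Lama3 had 165 and 162 CPM with vitamin C, against 187 and 193 CPM in controls, a log2 change of -0.21 ± 0.03 (SE; edgeR, adjusted p = 3.73e-07). Lama1 had 10 peaks and Lama3 had 33.

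Lama2, with 121 peaks over a transcript of 652 kb, had 1069 and 1054 CPM with vitamin C, against 934 and 936 CPM in controls, a log2 change of 0.18 ± 0.02. Lama4 had 799 and 806 CPM with vitamin C, against 621 and 584 CPM in controls (0.41 ± 0.03). Lama5 had 172 and 176 CPM with vitamin C, against 144 and 141 CPM in controls (0.28 ± 0.03). In each of these alpha chains both vitamin C libraries were above both controls. The share of all genes with such a gap was not counted, and 37.3% of all genes were called higher.

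Lamb1 had 309 and 317 CPM with vitamin C, against 280.3 and 267 CPM in controls (0.19 ± 0.03). The rises of Lama2 and Lamb1 differed by less than their SE, and over input the order was the other way, at 0.19 ± 0.03 in Lama2 and 0.16 ± 0.04 in Lamb1. Lamb2 had 6.08 and 6.59 CPM with vitamin C, against 2.57 and 3.47 CPM in controls, the largest rise (1.14 ± 0.16), from its only peak. Lamc1 had 783 and 787 CPM with vitamin C, against 601 and 603 CPM in controls (0.38 ± 0.03). The adjusted p of these 6 rises lay between 5.21e-16 and 5.63e-07 (edgeR).

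As a ratio to input, each library was taken as a share of all its counted reads, and the groups lay further apart for most members. This scale also raised the median of all peaks, as given below. With TMM, the log2 change over input was 0.19 in Lama2, 0.41 in Lama4, 0.28 in Lama5 and 0.40 in Lamc1. In hMeDIP alone these were 0.18, 0.41, 0.28 and 0.38. In Lama1, Lama3 and Lamb2 the change over input was larger in size, and in Lamb1 smaller. Lama4 was at 6.25 and 6.65 times input with vitamin C, against 3.88 and 3.22 times in controls. Lamc1 was at 5.47 and 5.69 times input with vitamin C, against 3.27 and 3.01 times in controls, and Lama2 at 4.72 and 4.98 times, against 3.29 and 3.01 times in controls. Lama1 was at 3.24 and 2.74 times input with vitamin C, against 4.81 and 4.60 times in controls. All peaks together were at 4.84 and 5.11 times input with vitamin C, against 3.96 and 3.57 times in controls.

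**Figure D2:**
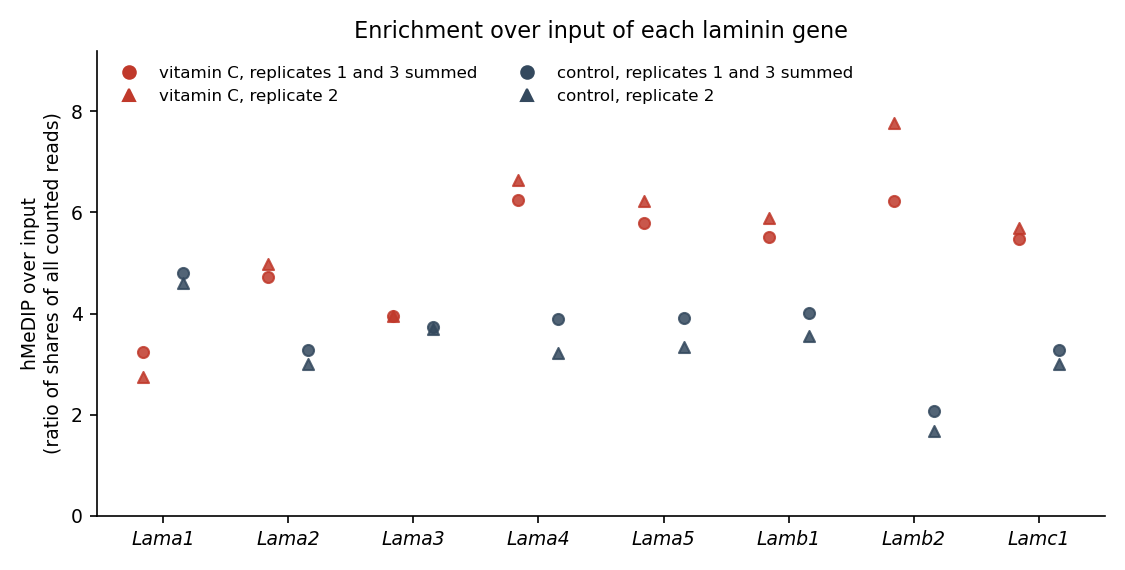
Ratio of hMeDIP to input reads over all peaks of each laminin gene, each as a share of all counted reads of its library, for vitamin C and control samples (linear axis from 0; circles are replicates 1 and 3 summed, triangles replicate 2). Lama1 alone is lower with vitamin C, at 3.24 and 2.74 against 4.81 and 4.60 in controls, and the 2 groups of Lama3 are close.

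The choice of scale matters for Lama3. When libraries were scaled by all counted reads, those outside peaks included, the median of all peaks moved to 0.49, against 0.05 with TMM, since 41.1% and 43.9% of hMeDIP reads lay in peaks with vitamin C and 33.8% and 30.8% in controls. On that scale Lama3 changed sign to 0.22 (edgeR, adjusted p = 0.0811), Lama1 stayed lower, and the other 6 genes stayed higher.

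Change in hMeDIP and change in RNA did not rank the members alike. Lama2 had the largest RNA change (1.34) and, beside Lamb1, 1 of the 2 smallest hMeDIP rises (0.18 ± 0.02), whereas Lamb2 had the largest hMeDIP rise (1.14) and an RNA change of 0.12 that did not pass. With TMM, hMeDIP also differed by RNA level over all genes. Of 6982 genes too low in RNA to be tested, 53.0% were lower and 22.9% higher in hMeDIP, with a median of -0.21. Of 10021 genes tested in RNA, 26.4% were lower and 47.3% higher, with a median of 0.10. Scaled by all counted reads, 31.6% of the 6982 were lower and 47.3% higher, with a median of 0.20. On that scale 7.62% of the 10021 were lower and 77.2% higher, with a median of 0.53, so the 2 sets still differed. Outside the members, hMeDIP of Lamc3 was lower (-0.88) and that of Lamb3 slightly lower (-0.16; edgeR).

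**Figure D3:**
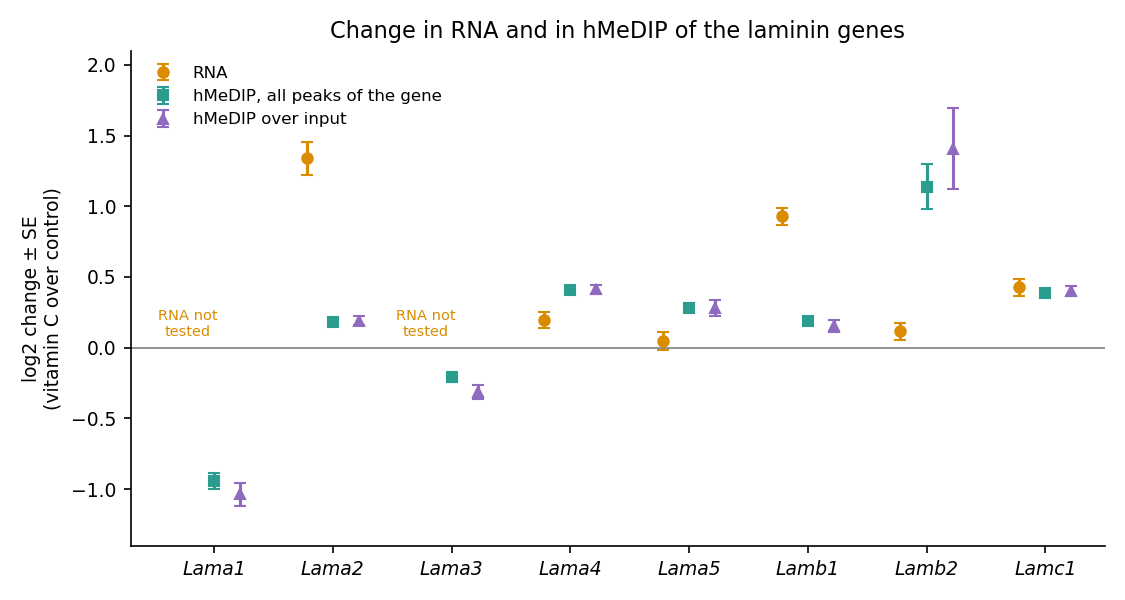
Log2 change with vitamin C over control in RNA (circles), in hMeDIP summed over all peaks of a gene (squares) and in hMeDIP over input (triangles), with SE bars. RNA is highest in Lama2 (1.34), hMeDIP is highest in Lamb2 (1.14) and lowest in Lama1 (-0.94), and the RNA of Lama1 and Lama3 had too few reads to be tested.

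Peak by peak, gains outnumbered losses. Of the 299 peaks, 167 were higher with vitamin C (55.9%), 58 lower (19.4%) and 74 not called, where 36.9% of all peaks were higher and 36.3% lower (edgeR, adjusted p under 0.05). Relative to input, 112 were higher and 44 lower, against a background of 20.8% higher and 28.3% lower. Scaled by all counted reads, 236 were higher and 34 lower, against 60.1% and 23.6% of all peaks. Input reads alone gave 0 calls in edgeR among the 299 peaks and 0 in DESeq2, where 8 had an unadjusted p under 0.05 in edgeR, and 0.0% of all peaks were called.

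The direction of most peaks went with their place in the deposited list. Chromosome 1 aside, the list runs through the chromosomes in order and then starts again. The first pass holds 68432 peaks and the second 147519, and no source used here says what the passes stand for. Peaks of chromosome 1, which carries Lama2, are interleaved with those of other chromosomes and were given a pass by their place in the list. The pass of Lama2 peaks therefore rests on that place alone. Of all peaks, 87.1% of the first pass were lower and 2.89% higher, while 12.8% of the second were lower and 52.6% higher. Of the 56 laminin peaks in the first pass, 42 were lower and 5 higher, with a median log2 change of -0.92, against -0.99 for all peaks there. Of the 45 first-pass laminin peaks under 1000 bases long, 38 were lower and 2 higher (median -1.05), and of the 11 longer ones 4 were lower and 3 higher (median -0.01). Of the 243 in the second pass, 162 were higher and 16 lower, with a median of 0.49, against 0.30 for all peaks there. Relative to input, 3 laminin peaks of the first pass were higher and 35 lower, against 1.19% and 75.5% of all peaks there. In the second pass 109 were higher and 9 lower relative to input, against 29.9% and 6.36%. The first pass held 18.7% of the laminin peaks and 31.7% of all peaks. The part of the list order in the gene totals was not tested.

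**Figure D4:**
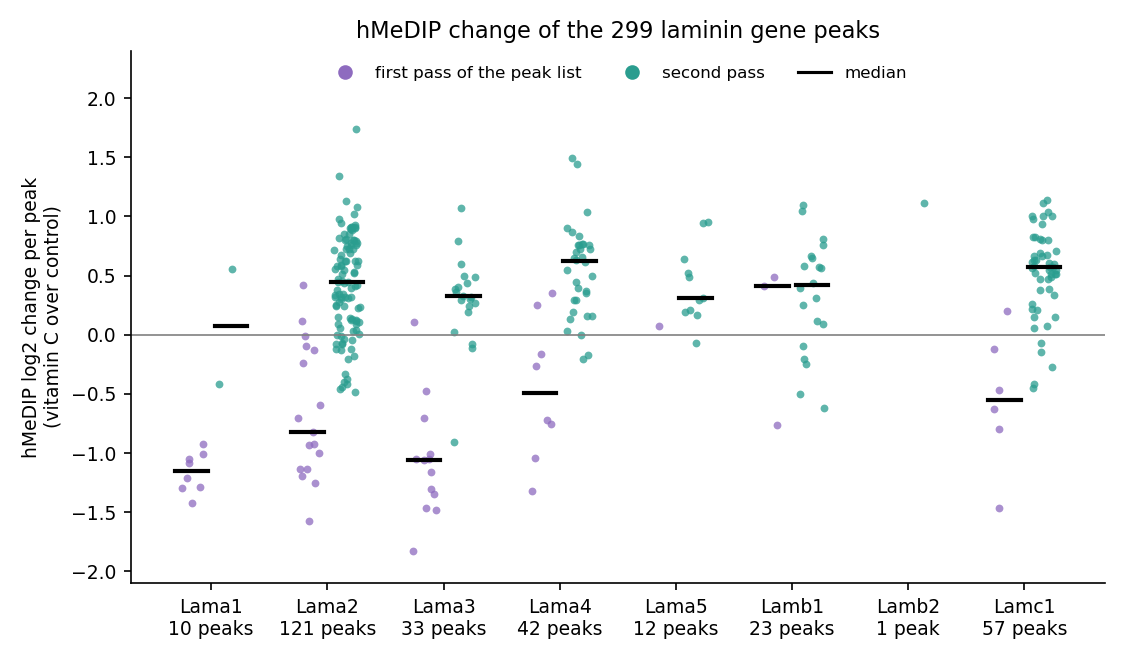
Log2 change in hMeDIP of each of the 299 peaks (points), by gene and by pass of the deposited peak list, with the median of each set of at least 2 peaks as a bar. First-pass peaks of Lama1, Lama2 and Lama3 lie mostly below 0 (medians -1.15, -0.82 and -1.06) and second-pass peaks mostly above it.

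The genes differed in how their peaks fall into these passes. Of the 10 peaks of Lama1, 8 were in the first pass, and all 8 were lower. Its 2 second-pass peaks summed to 6.70 and 6.20 CPM (here counts per 1000000 reads in all peaks) with vitamin C, against 6.49 and 7.27 CPM in controls, so the groups overlapped there. Of the 33 peaks of Lama3, 13 were in the first pass, and these summed to 26.2 and 25.1 CPM with vitamin C, against 50.3 and 55.6 CPM in controls. The 20 second-pass peaks of Lama3 went the other way, with 61.5 and 60.9 CPM with vitamin C, against 50.7 and 48.4 CPM in controls. Of the 121 peaks of Lama2, 17 were in the first pass, with 1 higher and 11 lower. Of its 104 second-pass peaks 62 were higher and 7 lower. Lamb1 was an exception in the first pass, with 2 of its 3 peaks there higher and 1 lower.

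Along the transcript, cut into 3 equal parts, every member but Lama1 and Lamb2 had gains in every part, where 36.9% of all peaks were higher. In Lama2, 23 of 46 peaks were higher in the 5′ part, 20 of 41 in the middle and 20 of 34 in the 3′ part, with median log2 changes of 0.29, 0.32 and 0.41. Lamc1 had medians of 0.58, 0.52 and 0.57 over the same parts, from 24, 17 and 16 peaks. In Lama4, 14 of 16 peaks were higher in the 5′ part, 12 of 21 in the middle and 3 of 5 in the 3′ part. Lower peaks numbered 6 in each part of Lama2, 2 in each part of Lama4, and 4, 1 and 2 in Lamc1. In Lamb1, 4 of 8, 6 of 9 and 5 of 6 peaks were higher, and 2, 2 and 1 lower. In Lama5, 5 of 8, 2 of 3 and 1 of 1 were higher, and 0 lower in each part. In Lama3, 5 of 13 peaks were higher in the 5′ part, 1 of 9 in the middle and 2 of 11 in the 3′ part. All 10 peaks of Lama1 lay in the 5′ and middle parts, and 9 of them were lower. Peaks were densest in Lamc1, with 4.57 per 10 kb, and sparsest in Lama1, with 0.799 per 10 kb.

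**Figure D5:**
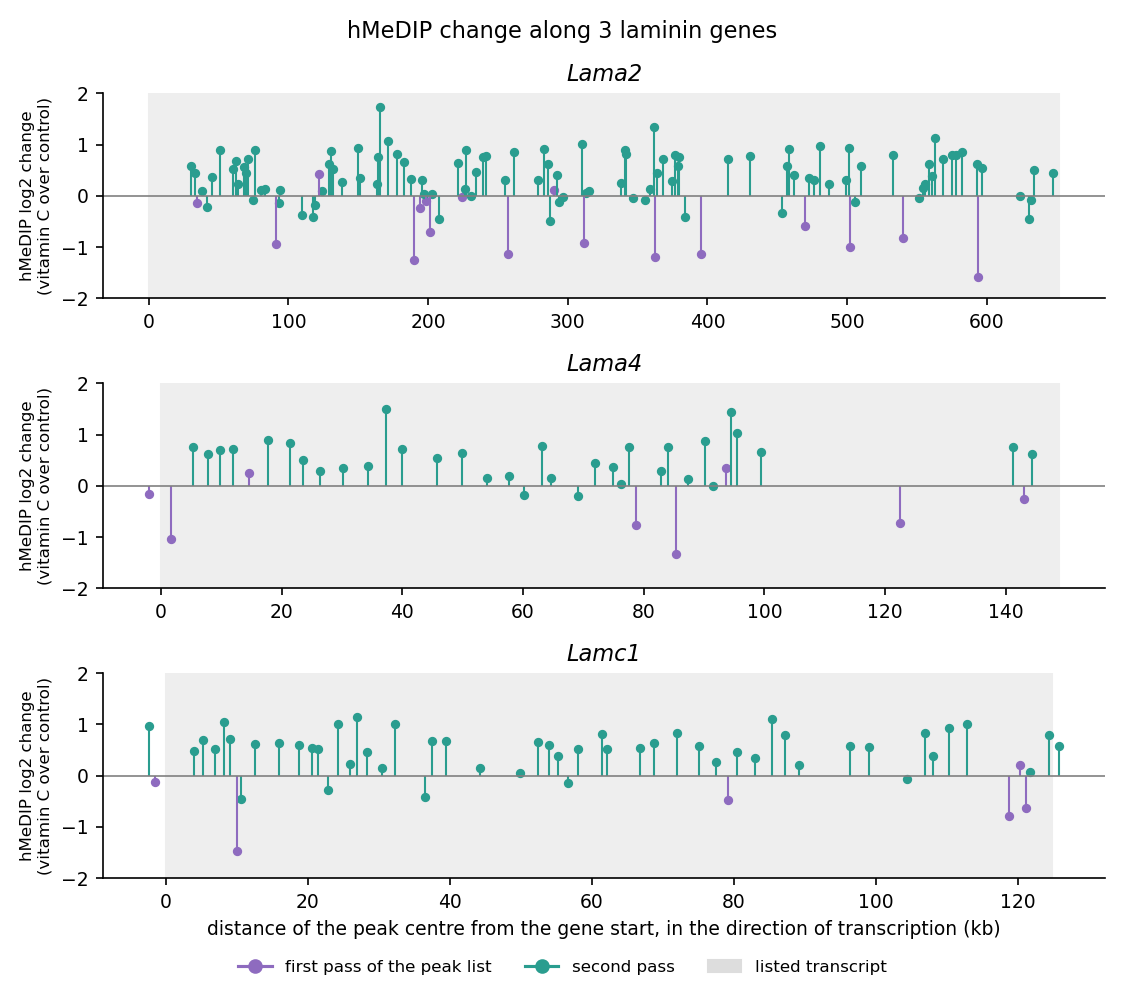
Log2 change in hMeDIP of each peak of Lama2, Lama4 and Lamc1 against the distance of its centre from the gene start in kb, coloured by pass of the peak list. Gains stand in the 5′, middle and 3′ parts of each transcript, with few peaks towards the 3′ end of Lama4, and the nearest Lama2 peak lies 30190 bases from the start.

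The largest gain was in the body of Lama2, at chromosome 1, 18656644 to 18657111, where vitamin C libraries had 2.66 and 2.46 CPM, against 0.795 and 0.723 CPM in controls. The log2 change was 1.74 ± 0.19 (SE; edgeR, adjusted p = 1.01e-10). The next were a pair of peaks in the body of Lama4. The first, at chromosome 20, 44097654 to 44098350, had 4.08 and 4.64 CPM with vitamin C, against 1.52 and 1.53 CPM in controls, and the other, at 44154972 to 44155325, had 2.29 and 1.91 CPM, against 0.744 and 0.893 CPM in controls. All 3 peaks were in the second pass of the list. They were picked as the highest called changes, so the gap between their groups follows from that choice.

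The largest losses were in Lama3 and Lama2, and all 3 were in the first pass. A Lama3 peak at chromosome 18, 3881040 to 3881620, had 1.56 and 1.69 CPM with vitamin C, against 5.94 and 5.27 CPM in controls (-1.83 ± 0.13; edgeR, adjusted p = 4.58e-16). A Lama2 peak at chromosome 1, 19085154 to 19085612, had 1.22 and 1.12 CPM with vitamin C, against 3.48 and 3.61 CPM in controls. A further Lama3 peak, at chromosome 18, 3736513 to 3736886, had 1.06 and 1.17 CPM with vitamin C, against 2.84 and 3.53 CPM in controls. These losses all lay in gene bodies. They were picked for the size of their change, so the gap between the groups follows from that choice.

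The strongest peak of each gene, by mean CPM, was higher in 4 members and lower in 1. Of all peaks, 36.9% were higher and 36.3% lower. The strongest of all was in Lama4, at chromosome 20, 44088085 to 44093814, with 44.6 and 43.5 CPM with vitamin C, against 34.9 and 34.0 CPM in controls (0.35 ± 0.05; edgeR, adjusted p = 3.09e-08). In Lamc1 the rise of the strongest peak, 0.15 ± 0.05, was called by edgeR (adjusted p = 0.0100) and not by DESeq2. In Lama2, Lama5 and Lamb1 it did not pass, with log2 changes of 0.11 ± 0.06, 0.07 ± 0.06 and 0.09 ± 0.06. Scaled by all counted reads these 3 were called higher, at 0.56, 0.53 and 0.56 (edgeR, adjusted p from 1.58e-04 to 3.75e-04). In Lama1 it fell by 1.29, in Lama3 it rose by 0.49 ± 0.11, and the only peak of Lamb2 rose by 1.12 ± 0.16. Relative to input, the rises in Lama4 and Lamb2 were called. Those in Lama3 (0.33 ± 0.22, edgeR, adjusted p = 0.204) and Lamc1 (0.06 ± 0.10, edgeR, adjusted p = 0.602) were not.

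Around gene starts, 17 of the 299 peaks carried a promoter label. Lama1 and Lama2 had none, and the nearest Lama2 peak, 30190 bases inside the gene, had 7.12 and 6.67 CPM with vitamin C, against 4.70 and 4.55 CPM in controls (0.58; edgeR, adjusted p = 1.06e-06). At Lamb1, a peak centred 1941 bases before the start fell by 0.76, to 1.93 and 2.26 CPM with vitamin C, against 3.28 and 3.87 CPM in controls. Another peak 1705 bases after the start rose by 0.49 ± 0.09, to 8.57 and 8.43 CPM with vitamin C, against 5.97 and 6.25 CPM in controls. The start of Lamb1 was thus flanked by a loss and a gain.

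At the start of the full-length Lamc1 transcript, the peak centred 1484 bases before it did not pass, with 4.72 and 5.01 CPM with vitamin C, against 5.31 and 5.10 CPM in controls. The one 2347 bases before it rose by 0.98 ± 0.17. The other 4 promoter labels of Lamc1 belong to short transcripts at the far end of the gene, and 1 of these peaks was higher, 2 lower and 1 not called. At Lama5, all 3 promoter peaks were higher, the one 938 bases before the start by 0.64 ± 0.12, and the calls of the other 2 were lost in DESeq2. At Lama4, a peak 1643 bases after the start fell by 1.05 and one 2038 bases before it by 0.16 (edgeR, adjusted p = 0.0196), and the second of these changed sign to 0.30 when scaled by all counted reads. The single Lamb2 peak lay 766 bases after the start. The 3 promoter labels of Lama3 belong to different transcripts, with 1 peak higher (1.07 ± 0.11) and 2 lower (-1.05 ± 0.16 and -1.06 ± 0.15). Of the 17 promoter peaks, 8 were higher, 7 lower and 2 not called, where 36.9% of all peaks were higher and 36.3% lower.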

How the data were processed

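The values deposited by the authors are raw counts, per gene for RNA and per peak for hMeDIP and input, in 18 libraries, with a peak list giving position, gene and label. Per the submitters' processing notes, the tools were STAR, BWA, HTSeq, Trim Galore and CASAVA 1.4. No source used here gives the genome build, peak caller, strand setting or base convention of positions, so overlapping and antisense genes cannot be told apart in RNA. Entries that name no gene or peak held 42.3% to 53.9% of counted RNA reads, 56.1% to 69.2% of hMeDIP and 91.3% to 91.6% of input reads, and were left out of tests.

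Counts were tested over all genes or peaks with edgeR 4.0.16 in R 4.3.3 (quasi-likelihood F test, TMM factors, default expression filter, Benjamini-Hochberg adjustment, threshold 0.05), with treatment as the only term. Levels are CPM scaled by TMM factors. Members under the filter are given as reads. Replicates 1 and 3 of hMeDIP were summed within each group, because their counts over peaks agreed within sampling noise (chi-square per degree of freedom 0.896 with vitamin C and 0.963 in controls, p = 1 each) while the other pairs differed (1.08 to 1.47). Every pair of input libraries of a group agreed within sampling noise, so no pair stood apart, and all 3 per group were kept in their own fit. In the fit of hMeDIP over input, inputs were summed to match and each sample had its own term. No molecular identifiers are mentioned, so reads may not be independent molecules.

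The members, gene lists and tests were chosen with earlier results of these data known. All members are described. Peaks named are the strongest of each gene, all with a promoter label, the 3 highest and 3 lowest changes, and the nearest to each start, which was added later. From each pathway list up to 5 genes with the largest called changes are named, from marker lists the called genes, and for each tested member the 3 genes most like it among 7492 with a symbol and a mean log2 CPM of at least 3. Promoters came from RefSeq (GRCr8), where 7 of 8 members matched. The fits were checked on simulated counts. Alternatives used DESeq2 1.42.0, other scaling, no filter, the replicate number as a block and left-out libraries. Summing replicates 1 and 3 in controls only was added after the data were seen. Figures used matplotlib 3.10.9, and summaries used pandas 2.3.3, scipy 1.17.1 and numpy 2.4.6 in Python 3.11.15.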

Additional observations from a re-analysis of the deposited data

How the results depend on the processing

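Counts of called members kept within 1.5 times of the values given, except under scaling by all counted reads. There 34 hMeDIP peaks were lower, against 58 with TMM. Over input, 194 were higher (112 with TMM) and 26 lower (44 with TMM). Of the genes, 1 was lower in hMeDIP and 1 over input, against 2 each, since Lama3 changed sign to 0.22 (0.086 over input). The same scaling turned the Lama4 peak at 44057733 to 0.30 and the Lamc1 peak at 70784468 to 0.32, and library-size scaling turned the RNA change of Lama5 to -0.0123. Over all features, scaling by all counted reads gave 129858 peaks higher and 51017 lower, against 79598 and 78467 (DESeq2: 43730 higher). It gave 11042 genes higher and 2971 lower, against 6335 and 6347. Over input it gave 100081 peaks higher and 33978 lower, against 44891 and 61077, and 9599 genes higher and 2227 lower, against 4621 and 4932. Without control replicate 2, 1784 RNA genes were lower, against 2715. The cause was not tested.

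Leaving out each library in turn gave 3 to 5 RNA members higher and 0 lower, 158 to 169 hMeDIP peaks higher and 54 to 59 lower, and 96 to 118 higher and 34 to 41 lower over input. At gene level no member changed sign, in hMeDIP or over input. In these hMeDIP fits, leaving out replicate 1 or 3 kept the other of the summed pair. Leaving out replicate 2 left only the summed library in that group, so these fits are a weak check of stability. Replicate numbers are shared by both groups, but no label says that they pair samples, so the samples were taken to share only a number. The deviations of same-numbered RNA libraries correlated at 0.299, 0.212 and 0.0414, and those of differently numbered ones at -0.312 to 0.285. These few values cannot settle whether the samples are paired. With the replicate block, 4 RNA members were higher and 0 lower, and 164 hMeDIP peaks were higher and 57 lower. Without the sample term, 107 peaks were higher and 44 lower over input. Gene body peaks alone left 5 genes higher and 2 lower, as Lamb2 has none. With 2 hMeDIP samples per group, and as few as 94 input reads per peak over all libraries, small changes of weak peaks were not detectable.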
